A study of Mus musculus with 6 samples.

Results

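The 9 CC chemokine ligands Ccl2, Ccl7, Ccl12, Ccl8, Ccl3, Ccl4, Ccl5, Ccl6 and Ccl9 were followed through CD45+ cells from mouse brains that carried a human glioma. They were taken by symbol from the 31053 genes of the deposited single-cell matrix, and all 9 symbols were found there once. Their transcripts were counted as unique molecular identifiers (UMIs, one per captured RNA molecule) in groups of cells set by marker genes, and none of the 9 served as a marker. The question was where each ligand was found, and whether Ccl2, Ccl7 and Ccl12 on one side and Ccl3 and Ccl4 on the other marked the same or separate microglia.

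CC chemokines are small secreted proteins named for a pair of neighbouring cysteines near the start of the mature chain. They bind G protein-coupled receptors on leukocytes and draw these cells along a gradient. Ccl2, Ccl7, Ccl12 and Ccl8 are monocyte chemoattractants, of which Ccl2, Ccl7 and Ccl12 act through Ccr2. Ccl3 and Ccl4 are macrophage inflammatory proteins, Ccl5 attracts T cells and NK cells, and Ccl3 and Ccl5 bind Ccr1. Ccl6 and Ccl9 are mouse ligands of Ccr1. Microglia, the resident macrophages of the brain, can make several of these ligands when they are activated by injury or by the handling of tissue.

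The study implanted U87 cells, an established human glioma line, into the brains of female SCID mice, which lack mature T and B lymphocytes; 50000 cells were placed in each mouse, and the labels give an age of 6 to 8 weeks. In 3 mice the glioma cells expressed IL-33, a cytokine of the IL-1 family, and the brain was taken 3 weeks after implantation. In the other 3 mice the glioma cells carried the empty vector pcDNA, and the brain was taken at 6 weeks. The tumour-bearing right hemisphere was dissociated, CD45+ leukocytes were sorted after a Percoll gradient, and libraries were made with the 10x Chromium 3′ kit. Group and time after implantation thus go together and cannot be told apart.

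The 6 libraries were deposited as 1 matrix, and neither the sample labels nor the barcodes tie the suffixes 1 to 6 to a mouse. Samples were taken from these labels alone, so all cells were treated as 1 pooled sample: no comparison of IL-33 with pcDNA and no test between groups of cells was made, and values per suffix are given as a range and a median only. The 6 suffixes hold the libraries of both groups, so each range over suffixes includes whatever difference lay between IL-33 at 3 weeks and pcDNA at 6 weeks, and is no measure of replicate error. The matrix held 40411 barcodes and 105560763 UMIs, with 9745192 to 24393841 UMIs per suffix. After the study's limits of over 200 and at most 2500 genes and under 5% mitochondrial UMIs, 38751 barcodes were left. One feature of the matrix touched every result. The same barcode sequence occurred under more than 1 suffix for 14722 barcodes (36.4%), and each of the 15 pairs of suffixes shared 509 to 3428 sequences, which was 17.7% to 49.6% of the smaller suffix. Over 3793 pairs of such copies the levels of Ccl4 correlated with r = 0.83, those of Ccl3 with r = 0.755 and those of Ccl2 with r = 0.492. Shared barcodes had a median of 929 UMIs against 3137 for the others. The suffixes are thus not independent of each other, and the main values are given with and without the shared barcodes; the cause of the sharing was not tested.

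Of the barcodes that passed the limits, 36565 (94.4%) were microglia, defined by at least 3 microglial marker genes and by no other cell type's gate. The study also named clusters of bone marrow-derived macrophages among these cells. It reported P2ry12 and Tmem119 at low levels in part of them, and interferon genes as top genes of another part. No gate was set for such macrophages here, so microglia means cells of this gate and can include them. Their level of P2ry12, a purinergic receptor typical of microglia, was 3735 UMIs per 1000000 UMIs of the group (CPM), and that of Tmem119 was 2464 CPM. Far fewer barcodes passed the gate of another cell type and held little microglial RNA. They were monocytes (211), dendritic cells (103), natural killer (NK) cells (92), granulocytes (25) and border macrophages (5). Barcodes of these gates with microglial RNA were kept apart: 55 monocyte, 6 dendritic, 71 NK, 26 granulocyte and 6 border macrophage barcodes. The gate of choroid plexus epithelium, a cell type that should not have passed a CD45 sort, held 193 barcodes with Ttr, the transthyretin made by that epithelium, at 376095 CPM. Of barcodes with little microglial RNA, gates of T cells, vascular cells and neural cells held 0, and the B cell gate held 3. Another 57 choroid plexus, 2 T cell and 2 neural barcodes held microglial RNA and were also kept apart. A further 1169 barcodes passed no gate.

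All 9 genes lie on chromosome 11 in 2 clusters (GRCm38, GENCODE annotation). Ccl2 (chr11:82035571-82037453), Ccl7 (chr11:82045712-82047525), Ccl12 (chr11:82101845-82103400) and Ccl8 (chr11:82115185-82116799) follow each other on the + strand. The second cluster holds Ccl5 (chr11:83525778-83530518, - strand), Ccl9 (chr11:83572919-83578636, - strand), Ccl6 (chr11:83587882-83593087, - strand), Ccl3 (chr11:83647844-83649355, - strand) and Ccl4 (chr11:83662584-83664683, + strand). The genes of a cluster are related in sequence, so the coding sequence around the cysteine pair is shown for each ligand. Each window has 42 bases of the spliced coding strand, 5′ to 3′, and the capitals mark the codons of both neighbouring cysteines; it lies in exon 2, in exon 3 for Ccl6 and Ccl9, and across exons 1 and 2 for Ccl8.
Ccl2: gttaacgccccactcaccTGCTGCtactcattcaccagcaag
Ccl7: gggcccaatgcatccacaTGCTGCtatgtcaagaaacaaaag
Ccl12: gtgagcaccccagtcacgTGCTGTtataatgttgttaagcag
Ccl8: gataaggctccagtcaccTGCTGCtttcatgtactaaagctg
Ccl3: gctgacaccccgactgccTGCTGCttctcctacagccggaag
Ccl4: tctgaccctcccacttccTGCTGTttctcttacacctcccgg
Ccl5: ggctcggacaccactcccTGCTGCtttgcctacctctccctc
Ccl6: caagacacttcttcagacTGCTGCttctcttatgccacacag
Ccl9: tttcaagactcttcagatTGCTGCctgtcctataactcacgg
Over the whole coding sequence the identity of the 36 pairs of ligands ran from 47.1% to 68.1%. The most alike were Ccl3 and Ccl4 (68.1%), Ccl6 and Ccl9 (66.4%) and Ccl12 and Ccl8 (65.4%). No pair shared a run of 30 identical bases over a single annotated transcript of each ligand. This search included the untranslated 3′ ends, where most reads of this kit fall. Genes on the opposite strand overlap Ccl2 (Gm17268) and Ccl6 (E230016K23Rik).

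In the pool of microglia 4 ligands were abundant, 3 were low and 2 were lower still. The UMIs come from the 3′ end of each molecule, so a longer transcript does not give more of them and the levels of different ligands can be set side by side. Ccl4 stood at 3777 CPM (95% Poisson interval 3764 to 3790), with 2980, 3791 and 4108 as the lowest, median and highest suffix. Ccl12 stood at 3192 CPM (3180 to 3204; suffixes 2776, 3202 and 3592). Ccl3 stood at 2201 CPM (2191 to 2210; suffixes 1494, 2212 and 2529). Ccl4 and Ccl12 overlapped over suffixes, and the highest suffix of Ccl3 lay below the lowest of Ccl12. Ccl2 followed at 763.8 CPM (758.1 to 769.5; suffixes 389, 807.8 and 1136), so its highest suffix was below the lowest of Ccl3. These intervals, like all intervals given, cover counting error only.

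The other 5 ligands lay far below the lowest suffix of Ccl2. Ccl6 was at 70.3 CPM (suffixes 62.8 to 76.8), Ccl7 at 64.6 CPM (23.9 to 112.3) and Ccl9 at 56.8 CPM (49.9 to 60.7). Among these Ccl7 spread widely over suffixes and overlapped both others, whereas Ccl6 lay above Ccl9 in its whole range. Ccl5 was at 26.7 CPM (12.97 to 48.5), below the lowest suffix of Ccl6 and Ccl9. Ccl8 was at 2.72 CPM (0.579 to 6.29), and 57 of its 247 UMIs came from 1 cell. The background values are set out with the other cell groups.

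Shared and unshared microglial barcodes differed in Ccl2, Ccl7 and Ccl12 and in Ccl3, but little in Ccl4. In the 13382 shared microglia Ccl12 stood at 970.6 CPM, Ccl2 at 348.3 CPM and Ccl7 at 20.6 CPM; in the 23183 unshared ones the same ligands stood at 3670, 853.2 and 74.0 CPM. Ccl3 went the other way, with 2848 CPM in shared and 2061 CPM in unshared barcodes, as did Ccl6 (108 and 62.2 CPM) and Ccl9 (113.3 and 44.6 CPM). Ccl4 was close to equal at 3585 and 3818 CPM. Shared microglia also held more Apoe, the lipid carrier of activated microglia, at 36357 CPM against 9760 CPM, and less P2ry12, at 2456 CPM against 4010 CPM.

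Outside microglia the leading ligands differed between cell types. Barcodes with microglial RNA were kept apart, and held Ccl12 at 2946 CPM for monocytes and 3359 CPM for NK cells. The low levels of Ccl2 and Ccl12 in the groups below can thus be shaped by this choice of cells. In NK cells the leading ligand was Ccl5, at 21667 CPM (20953 to 22400), which was 813 times the microglial level. The suffixes with at least 20 NK cells gave 20911 and 24808 CPM, far outside the microglial range. Ccl4 in NK cells was at 3865 CPM (3566 to 4181), so its interval covered the microglial level, and Ccl3 was at 1365 CPM. Without the cell that held 87 of the 620 Ccl4 UMIs, Ccl4 was at 3347 CPM (3069 to 3644), below the microglial level. Gates of at least 4 markers gave 2913 CPM of Ccl4, and gates on barcodes thinned to 500 UMIs gave 3086 CPM. Ccl12 at 754.2 CPM rested on 1 cell that held 109 of the 121 UMIs; without that cell it was 77.0 CPM (39.8 to 134.5). Ccl2 was at 43.6 CPM from 7 UMIs, and Ccl6 and Ccl8 had 0 UMIs, where 3 UMIs would be 18.7 CPM.

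In monocytes and dendritic cells the leading ligands were Ccl6 and Ccl9. Ccl6 was at 1151 CPM in monocytes (1078 to 1227; 3 suffixes from 917.3 to 1453) and at 694.4 CPM in dendritic cells (625.9 to 768.2; suffixes 598.5 and 778.2). Ccl9 was at 912.4 CPM in monocytes (698.4 to 1203) and at 958.4 CPM in dendritic cells (963.3 and 1038 in the suffixes with at least 20 such cells). None of these suffix values came near the microglial ranges of 62.8 to 76.8 CPM for Ccl6 and 49.9 to 60.7 CPM for Ccl9. Ccl2 and Ccl12 were below the pooled microglial level in both types. Ccl2 was at 262.1 CPM in monocytes and 121.9 CPM in dendritic cells, and Ccl12 at 87.8 and 51.7 CPM. Ccl7 was at 60.6 CPM in monocytes (44.8 to 80.1), an interval that covered the microglial level, and at 5.54 CPM in dendritic cells. Over suffixes Ccl7 in monocytes ran from 21.1 to 176.7 CPM. Ccl5 was at 144.6 CPM in monocytes, above the highest microglial suffix, and was counted in 14 of 211 cells. Ccl3 and Ccl4 were at 651.5 and 812.2 CPM in monocytes and at 188.4 and 254.8 CPM in dendritic cells, all below the microglial suffixes.

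The smallest groups gave counts only. The 25 granulocyte barcodes held Ccl4 at 2500 CPM (1856 to 3296), Ccl3 at 1100 CPM (689.4 to 1666) and Ccl6 at 750.1 CPM (419.8 to 1237). Of the 5 border macrophage barcodes 1 held 28 of the 29 Ccl7 UMIs, 26 of the 40 Ccl2 UMIs and 61 of the 69 Ccl4 UMIs. The 1169 ungated barcodes, of which 15.1% were unshared, held Ccl3 at 3289 CPM and Ccl4 at 4392 CPM beside Ccl12 at 714 CPM. They also had Ccl6 at 293.1 CPM and Ccl9 at 217.9 CPM, with P2ry12 at 360.5 CPM.

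Choroid plexus barcodes served as the measure of free RNA, on the assumption that this epithelium makes none of the 9 ligands. That assumption was not tested. P2ry12, Tmem119 and Cst3 stood at 1.36%, 2.16% and 6.95% of their microglial levels in these barcodes. A further 57 such barcodes with microglial RNA had been kept apart, and held Ccl4 at 2302 CPM and Ccl12 at 2046 CPM. The 193 used here were thus chosen for little microglial RNA, so their levels can understate the background. Their levels were 191.3 CPM of Ccl4, 118.7 CPM of Ccl12, 99.3 CPM of Ccl3 and 16.9 CPM of Ccl2, which was 5.07%, 3.72%, 4.51% and 2.22% of the microglial levels. After every barcode was thinned to 500 UMIs, Ccl4 had a UMI in 51.7% of microglia (exact binomial interval 51.2% to 52.2%) against 8.29% of choroid plexus barcodes (4.81% to 13.1%). The shares were 41.6% against 5.70% for Ccl3, 37.9% against 4.66% for Ccl12 and 15.5% against 0.518% for Ccl2, so all 4 stood above this background in microglia. Without thinning, the shares in microglia were 71.2%, 60.4%, 57.4% and 30.8%, at a median depth of 2470 UMIs against 1015 in choroid plexus. Ccl12 in monocytes (4.74%), dendritic cells (4.85%) and NK cells (3.26%) was at the choroid plexus share, and so is read as background there. In dendritic cells Ccl3 (5.8%, 2.17% to 12.3%) and Ccl4 (10.7%, 5.45% to 18.3%) could not be told from the choroid plexus shares either. Ccl2 in monocytes (9.01%, 5.51% to 13.7%) lay above its choroid plexus share of 0.518% (0.0131% to 2.85%). Ccl6 and Ccl9 were in 0 of 193 choroid plexus barcodes, with an exact interval of up to 1.89%, against 3.97% and 3.49% of microglia. The shares of Ccl7 (1.17% against 0.518%, interval 0.0131% to 2.85%), Ccl5 (0.692% against 0) and Ccl8 (0.0738% against 0) in microglia could not be told from this background at this depth.

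Genes passed a floor of 50 CPM in either group before they were counted as over 1.5-fold apart. A gene under the floor in one group thus passed only through the other, and could not be called lower there. Against microglia, NK cells had 8 members above the floor, 1 of them higher (45.7% of all genes tested were higher) and 6 lower (27.4% of all). Monocytes had 8 above the floor, with 3 higher (38.5% of all genes) and 4 lower (26.5%). Dendritic cells had 7, with 2 higher (43.2%) and 5 lower (27%). Choroid plexus had 7, with 0 higher (33.3%) and all 7 lower (49.3%). Ungated barcodes had 8, with 3 higher (15.5%) and 3 lower (11.7%).

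**Figure D1:**
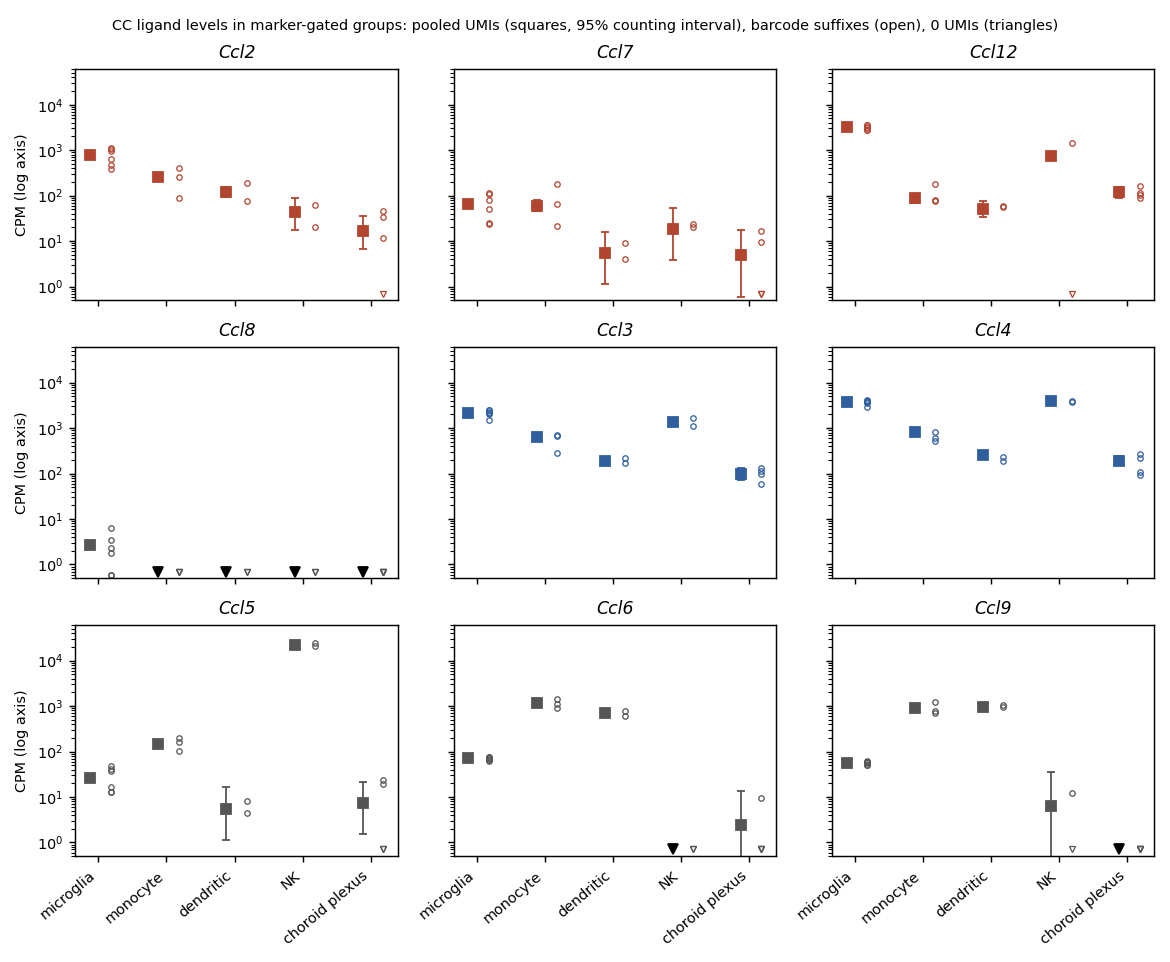
Level of each of the 9 ligands in each marker-gated group, as CPM on a log axis; squares are the pooled level with its 95% Poisson interval, open circles the barcode suffixes with at least 20 cells of the group, and triangles at the bottom a pool (filled) or suffix (open) with 0 UMIs. Ccl5 in NK cells (21667 CPM) stands far above its 26.7 CPM in microglia, whereas Ccl12, Ccl3 and Ccl4 are above 2000 CPM in microglia.

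The remaining CC ligands and the receptors were read from a fixed list. Of 12 other CC ligands, Ccl24, an eosinophil attractant, and Ccl17, a ligand of Ccr4, stood out in the groups of more than 25 cells. Ccl24 was at 283.1 CPM in monocytes (suffixes 84.1 to 468.9), 105.3 CPM in dendritic cells and 15.6 CPM in microglia, and Ccl17 was at 48.01 CPM in dendritic cells; Ccl1 had 8 UMIs in NK cells (49.9 CPM). In microglia the next were Ccl25 at 6.38 CPM, a level that choroid plexus (7.27 CPM) also had, and Ccl27a at 1.08 CPM. Among receptors, microglia held Ccr6, the receptor of Ccl20, at 252.6 CPM (203.3 to 278.7) and the atypical receptor Ccrl2 at 445.8 CPM (400.2 to 503). Ccr1, which binds Ccl3, Ccl5, Ccl6 and Ccl9, was at 44.4 CPM in microglia, 427.7 CPM in monocytes, 293.6 CPM in dendritic cells and 2500 CPM in granulocytes. Ccr2, the receptor of Ccl2, Ccl7 and Ccl12, was at 4.81 CPM in microglia and at 305.4 CPM in NK cells; its 1859 CPM in monocytes cannot be read, since it was one of the monocyte markers. Ccl2 and Ccl12 thus stood highest, among the groups of more than 25 cells, in a group with little Ccr2. Ccl7 was at 60.6 CPM in monocytes and 64.6 CPM in microglia. Microglia had to fail the monocyte gate, so the choice of cells can have lowered their Ccr2.

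For single cells, the 21410 microglia with at least 2000 UMIs were thinned to 2000 UMIs each, which left out 15155 microglia; 93.3% of those kept were unshared. Ccl4 had a mean of 7.52 UMIs per 2000 and was seen in 74.3% of the cells, and Ccl12 had a mean of 6.95 in 74.3%. Ccl3 had a mean of 4.06 in 52.4% of cells, and Ccl2 a mean of 1.54 in 35.5%. Each of the 4 was spread very unevenly. The 10% of cells richest in Ccl2 held 67.2% of its UMIs, and the same share of cells held 54.8% of the UMIs of Ccl3, 44.9% of Ccl12 and 44.8% of Ccl4. The variance over the mean, which is 1 for counting noise alone, was 8.75 for Ccl2, 14.6 for Ccl12, 13.5 for Ccl3 and 16.1 for Ccl4. Ccl7 was seen in 3.20% of the cells with a variance over the mean of 9.59 and up to 38 UMIs in 1 cell. Ccl6 and Ccl9, with means of 0.129 and 0.0972 UMIs, were seen in 11.5% and 8.19% of cells, never with more than 4 and 6 UMIs, and their variance over the mean was 1.12 and 1.30. This measure nears 1 as the mean falls, so the squared coefficient of variation beyond counting noise was also taken. It was 5.06 for Ccl2, 3.33 for Ccl9, 3.08 for Ccl3, 2.00 for Ccl4, 1.97 for Ccl12 and 0.874 for Ccl6, so Ccl9 was no less uneven than Ccl3, and Ccl6 was the most even of these.

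To set the ligands against each other, each cell's 2000 UMIs were dealt at random into 2 draws of 1000, and correlations were corrected for counting noise with the covariance between draws. Ccl3 and Ccl4 went together with a corrected r of 0.671 (raw r 0.626; suffixes 0.642 to 0.705; unshared 0.672). Ccl2 and Ccl12 had 0.298 (raw 0.272; suffixes 0.233 to 0.336; unshared 0.292), and Ccl2 and Ccl7 had 0.239 (raw 0.214; suffixes 0.157 to 0.286). Ccl7 and Ccl12 had only 0.106. Between the patterns the 6 pairs ran from 0.0607 for Ccl7 and Ccl3 to 0.181 for Ccl2 and Ccl4, with a median of 0.165 (0.168 unshared; raw 0.151). The Ccl3 and Ccl4 pattern was therefore tight, whereas the Ccl2, Ccl7 and Ccl12 pattern was loose, and its weakest pair lay below the median across patterns. These values describe cells of 1 pooled sample at equal depth and carry no p-value. Ccl6 and Ccl9 had a corrected r of 0.418, the next highest of the 36 pairs after Ccl3 and Ccl4, but a raw r of 0.0635; at such low counts the corrected value ran from 0.0809 to 0.723 over suffixes (unshared 0.359). For Ccl8, the sparsest ligand, the highest raw r was 0.0120, with Ccl2.

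**Figure D2:**
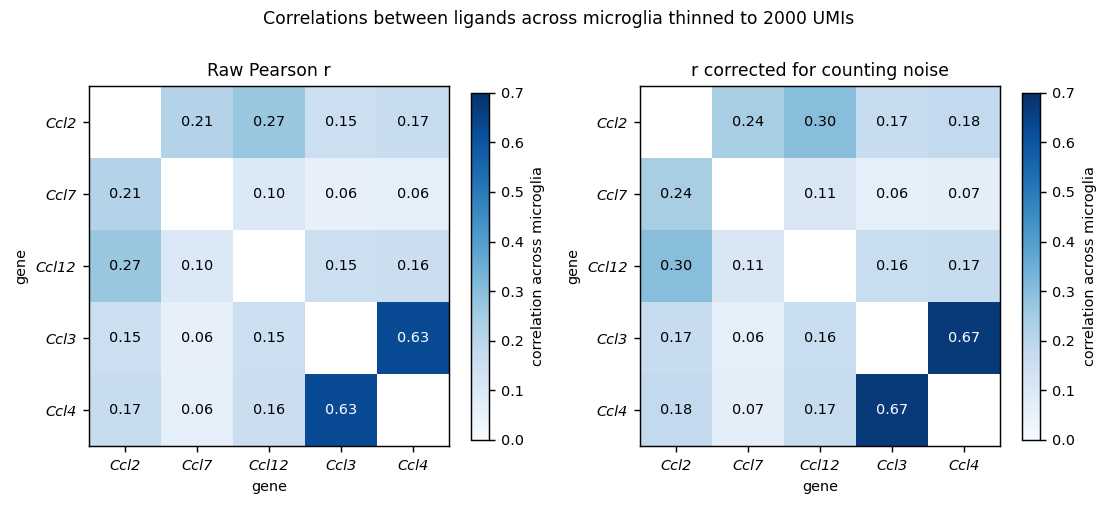
Pearson correlations between 5 ligands across 21410 microglia thinned to 2000 UMIs, raw on the left and corrected for counting noise on the right. Ccl3 with Ccl4 (0.671 corrected) stands apart, Ccl2 with Ccl12 (0.298) and with Ccl7 (0.239) follow, and every pair across the patterns is at or below 0.181.

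Ccl3 and Ccl4 were the closest of the 6 pairs examined in each microglial state, whereas the order of the other pairs changed between states. The states were set by other genes, but some of these genes share a cluster of the study with the ligands. In the 14118 cells of no state, Ccl3 and Ccl4 had a corrected r of 0.615, Ccl2 and Ccl12 0.233, and Ccl2 and Ccl3 0.123. Ccl3 and Ccl4 ranged from 0.534 in MHC class II cells to 0.778 in interferon cells. In the 516 interferon cells Ccl12 correlated with Ccl4 (0.3) and with Ccl3 (0.279) more than with Ccl2 (0.145), the only state of the 6 in which Ccl12 was closer to both of these than to Ccl2. Ccl2 was also closer to Ccl7 than to Ccl12 in interferon cells (0.303) and in MHC class II cells (0.332 against 0.272). In the 213 cells of the Lpl and Fam20c state Ccl2 went with Ccl7 (0.436) and Ccl12 (0.358) but had -0.0211 with Ccl3. In 182 monocytes Ccl3 and Ccl4 had a raw r of 0.917 and Ccl6 and Ccl9 of 0.582, whereas Ccl2 had -0.0123 with Ccl3. In 102 dendritic cells Ccl2 and Ccl7 had 0.822, a value that rests on at most 3 UMIs of Ccl7.

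The patterns were next read against each other over bins of cells, with the cells binned on one draw and the levels taken from the other. Over bins of 0, 1 to 2, 3 to 7, 8 to 15 and 16 or more UMIs of Ccl2+Ccl7+Ccl12 per 1000, the sum of Ccl3 and Ccl4 was 4393, 5221, 5918, 7664 and 10552 CPM. The bins held 6450, 5420, 5382, 2847 and 1311 cells. The sum that set the bins went from 518.3 to 20365 CPM over the same bins. Microglia with no Ccl2, Ccl7 or Ccl12 UMI thus still held Ccl3 and Ccl4 in plenty, and the level was higher in each next bin.

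In the reverse reading the bins of Ccl3+Ccl4 held 5698, 4824, 5468, 3201 and 2219 cells. Their Ccl2+Ccl7+Ccl12 sum was 2896, 3506, 4523, 5863 and 6955 CPM, while the binned sum itself went from 514.9 to 24280 CPM. Ccl2 alone went from 388.4 to 1526 CPM, Ccl7 from 24.6 to 133.4 CPM and Ccl12 from 2483 to 5295 CPM between the outer bins. The outer bins did not overlap over suffixes for the whole sum (2540 to 3691 against 4824 to 8842 CPM) or for Ccl12 (2097 to 2989 against 3975 to 6381 CPM). For Ccl7 they overlapped slightly, at 7.97 to 53.0 against 50.3 to 264.6 CPM.

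**Figure D3:**
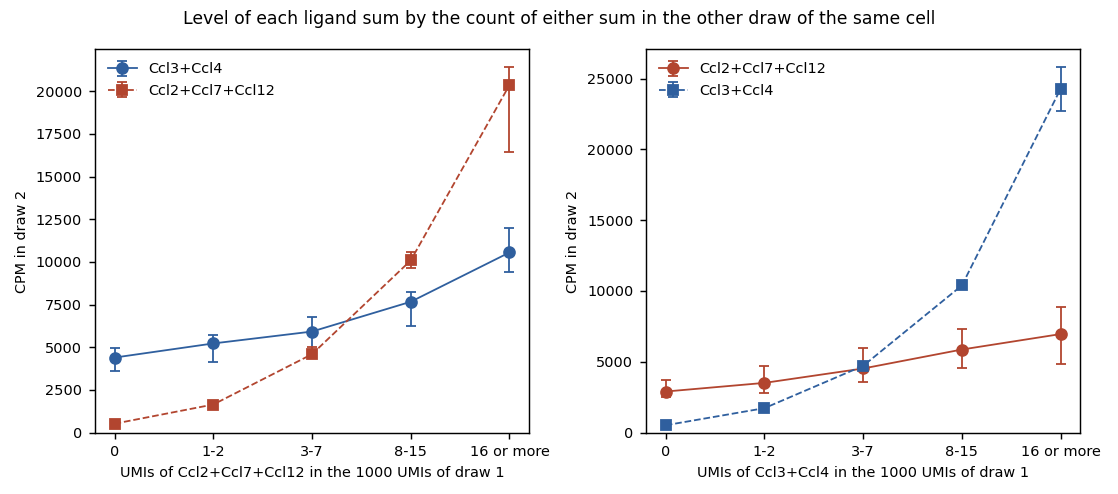
Ligand sums in draw 2 of microglia binned by the other sum (and by their own) in draw 1 of 1000 UMIs, in CPM; points are all cells of a bin and bars the range over the 6 suffixes. Each sum is higher in each next bin of the other, from 4393 to 10552 CPM for Ccl3+Ccl4 and from 2896 to 6955 CPM for Ccl2+Ccl7+Ccl12, far less than the change of the sum that set the bins.

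In each state except Lpl and Fam20c cells, both sums were higher than in cells of no state over all barcodes. The 28507 microglia with at least 1000 UMIs were gated by marker genes into cycling (737), interferon (720), MHC class II (375), Lpl and Fam20c (435), Il1b and Tnf (4063) and Apoe high (8191) cells, which may overlap, and 16639 cells of no state. The study has Ccl12 beside interferon genes among the top genes of a bone marrow-derived macrophage cluster from these same cells. The interferon state was thus not independent of Ccl12. Interferon cells held Ccl2 at 2596 CPM, 5.36 times the level of cells of no state, Ccl7 at 269.3 CPM (8.97 times) and Ccl12 at 9450 CPM (3.42 times). Ccl3 and Ccl4 were at 3852 and 7461 CPM, 2.70 and 2.55 times that level. In every suffix that held 20 or more interferon cells (5 of 6), these 5 ligands were higher. Ccl5 was at 317.6 CPM in interferon cells, 37.1 times the level of cells of no state (12.3 to 48.1 over suffixes), with the NK genes Nkg7 and Gzma at 0.855 and 0.428 CPM. Both NK genes are markers of a gate that microglia had to fail. Their low levels were thus shaped by the choice of cells, and the source of Ccl5 was not tested. Of the 8 members above the floor 7 were higher in interferon cells, where 9.31% of all genes tested were higher, and 0 were lower (4.5% of all). Among the 7, Ccl7, Ccl5 and Ccl9 were under the floor in cells of no state and could not be called lower.

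Lpl and Fam20c cells, named for lipoprotein lipase and a secretory pathway kinase, held the largest gap between the patterns among the 6 states. The study has Ccl3 and Ccl4 beside Lpl and Fam20c among the top genes of a microglial cluster from these same cells. The choice of this state was thus not independent of both ligands. Ccl3 was at 5340 CPM (3.75 times the level of cells of no state; 5.40 times without shared barcodes) and Ccl4 at 8290 CPM (2.84 times; 4.199 times), both higher in 5 of 5 suffixes. Ccl12 was at 1463 CPM, 0.530 times the level of cells of no state and lower in 5 of 5 suffixes, but 0.894 times without the shared barcodes, which left 152 of the 435 cells. Ccl2 was 1.29 times as high (0.459 to 2.00 over suffixes; 2.04 times unshared). Ccl6 and Ccl9 were 2.47 and 2.85 times as high in this state, at 158.4 and 125.1 CPM, and higher in 5 of 5 suffixes. Of the 6 members above the floor 4 were higher (13.2% of all genes) and 1 lower (12.4%). Among the 4, Ccl9 was under the floor in cells of no state and could not be called lower. Mrc1 had 0 UMIs in these cells, but it is a marker of the border macrophage gate, which microglia had to fail.

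MHC class II cells held Ccl2 at 1455 CPM, Ccl12 at 7144 CPM, Ccl3 at 2763 CPM and Ccl4 at 5202 CPM. Ccl12 was 2.59 times as high as in cells of no state in the pool, but its suffixes ran from 0.745 to 2.80 times, so this level differed between suffixes. Ccl2 (0.302 to 4.50 times) and Ccl7 (0.228 to 16.8 times) were each higher in 4 of 5 suffixes. A single suffix held 216 of the 375 cells. The Ccl8 level of 55.2 CPM, 62.8 times that of cells of no state, rested on 1 cell with 57 of the 74 UMIs. Of the 9 members above the floor 8 were higher (5.37% of all genes) and 0 lower (5.76%). Among the 8, Ccl7, Ccl8, Ccl5 and Ccl9 were under the floor in cells of no state and could not be called lower. Ccl9 was 1.56 times as high, but 1.15 times without the shared barcodes.

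Il1b and Apoe stand beside Ccl2, Ccl12 and Ccl3 among the top genes of a microglial cluster that the study drew from these same cells. Another of its microglial clusters has Apoe beside Ccl3 and Ccl4. The choice of Il1b and Tnf cells and of Apoe high cells was thus not independent of these ligands. Il1b and Tnf cells were set by the inflammatory cytokine genes Il1a, Il1b and Tnf. They had Ccl2 3.14 times, Ccl7 4.74 times, Ccl12 1.91 times, Ccl3 2.23 times and Ccl4 1.92 times as high as cells of no state, each in 6 of 6 suffixes. There 6 of the 8 members above the floor were higher (2.58% of all genes) and 0 lower (0.394%). Apoe high cells had Ccl2 2.83 times, Ccl7 4.98 times, Ccl3 2.56 times and Ccl4 1.81 times as high in 6 of 6 suffixes. Ccl12 was 1.45 times as high there, and 2.05 times without the shared barcodes. In that state 6 of 8 members were higher (5.34% of all genes) and 0 lower (4.03%), among them Ccl9 at 1.67 times, which was 1.13 times without the shared barcodes. Cycling cells had 4 of 7 members higher (16.4% of all genes) and 0 lower (2.47%), with Ccl2 at 2.75 times, Ccl7 at 4.30 times, Ccl12 at 1.69 times and Ccl3 at 1.67 times. Ccl7, Ccl5 and Ccl9 were under the floor in cells of no state, so where they passed in these states they could not be called lower. Cells of these states were also deeper or shallower than those of no state, with medians from 1950 UMIs in Apoe high cells to 3461 in MHC class II cells against 2991, and the part of depth in these levels was not tested.

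The ratio of the Ccl2+Ccl7+Ccl12 sum to the Ccl3+Ccl4 sum put the states in order. It was 0.157 in Lpl and Fam20c cells (suffixes 0.107 to 0.254; unshared 0.181), 0.620 in Apoe high cells (0.362 to 0.756; unshared 0.787) and 0.754 in cells of no state (0.674 to 0.918; unshared 0.771). Il1b and Tnf cells had 0.789, cycling cells 0.912, interferon cells 1.09 (0.880 to 1.36; unshared 1.15) and MHC class II cells 1.12 (0.345 to 1.23; unshared 1.26). Over suffixes only Lpl and Fam20c cells stood below all cells of no state, since Apoe high, Il1b and Tnf, cycling, interferon and MHC class II cells overlapped with them.

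The same ratio followed depth and sharing. In all microglia it was 0.673 (4020 over 5978 CPM; suffixes 0.561 to 0.766), in unshared barcodes 0.782 and in shared barcodes 0.208 (1340 over 6434 CPM; suffixes 0.147 to 0.391). Microglia of 500 to under 1000 UMIs had 0.129, those of 1000 to under 2000 UMIs 0.307 and those of at least 2000 UMIs 0.764. Among unshared barcodes alone these depth classes had 0.730, 0.802 and 0.781. The low ratio of shallow microglia was thus seen in the shared barcodes, which made up all but 691 of the 8058 cells of 500 to under 1000 UMIs.

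**Figure D4:**
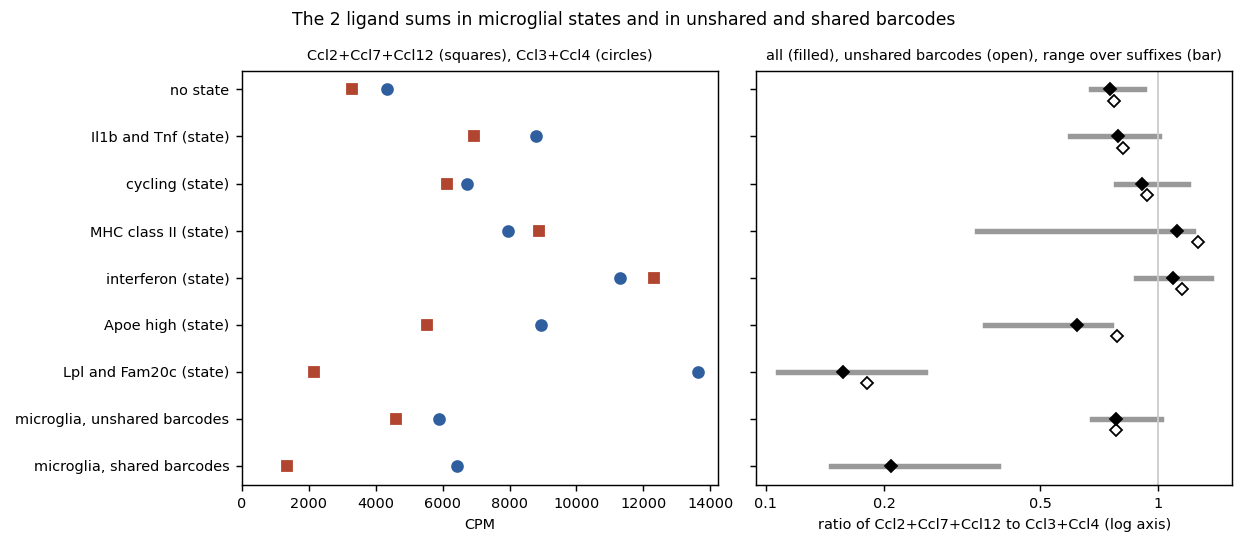
Left, the Ccl2+Ccl7+Ccl12 sum (squares) and the Ccl3+Ccl4 sum (circles) in CPM by microglial state and barcode sharing; right, their ratio on a log axis for all barcodes (filled), unshared barcodes (open) and over suffixes (bar). Lpl and Fam20c cells (0.157) and shared barcodes (0.208) lie lowest, and the ratio is above 1 in interferon and MHC class II cells (1.09 and 1.12).

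Microglia were also sorted by the level of both sums in draw 1, as high (8 or more UMIs per 1000) or low (2 or fewer), and described with draw 2. Such classes are ranges of a score and not cell types, and 2620 and 2776 cells held 6 to 9 UMIs of the first and second sum, near the limit. Cells high for Ccl2+Ccl7+Ccl12 and low for Ccl3+Ccl4 made up 1367 of 21410 (6.39%, exact binomial interval 6.06% to 6.72%; suffixes 5.70% to 8.31%). Cells with the reverse made up 2377 (11.1%, 10.7% to 11.5%; suffixes 9.06% to 12.4%), so the ranges of the 2 classes did not overlap. High for both were 1643 cells (7.67%; suffixes 3.78% to 11.2%), and low for both 6655 (31.1%). The share high for both was 1.56 times the product of the separate shares of 19.4% and 25.3% (1.49 to 1.67 over suffixes; unshared 1.58). Of all cells high for Ccl2+Ccl7+Ccl12, 39.5% were also high for Ccl3+Ccl4, against 20.03% of the cells with 2 or fewer UMIs of the first sum. Cells high for both sums were therefore more frequent than the product of the shares, and cells high for a single sum were found in every suffix.

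Interferon cells made up 11.8% of the cells high for both sums, 3.88% of those high for Ccl2+Ccl7+Ccl12 alone and 0.968% of those high for Ccl3+Ccl4 alone. Apoe high cells made up 42.9%, 16.4% and 29.1% of the same classes. Lpl and Fam20c cells made up 4.25% of the Ccl3+Ccl4 class and 0.146% of the Ccl2+Ccl7+Ccl12 class. The classes also differed in sharing, with 96.9% unshared barcodes in the Ccl2+Ccl7+Ccl12 class and 87.6% in the Ccl3+Ccl4 class, and little in depth, with medians of 3291 and 3172 UMIs.

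The ligands outside the sums that set the classes were compared first. Ccl9 was 1.78 times as high in the Ccl3+Ccl4 class (67.7 against 38.04 CPM), in 6 of 6 suffixes, and Ccl6 was 1.39 times as high (78.3 against 56.3 CPM), in 5 of 6. Without the shared barcodes their log2 ratios were -0.62 and -0.26 on the side of the Ccl3+Ccl4 class. Ccl5 was at 19.0 CPM in the Ccl2+Ccl7+Ccl12 class and 21.5 CPM in the other, and Ccl8 at 1.46 and 0.421 CPM, both under the floor. Over 1.5-fold apart were 38 of 2850 genes (1.33%) higher in the Ccl2+Ccl7+Ccl12 class and 53 (1.86%) higher in the Ccl3+Ccl4 class. The 5 ligands that set the classes were among them. A gene under the floor in 1 class passed only through the other, and could not be called lower there. Ccl9, under the floor in the Ccl2+Ccl7+Ccl12 class, was such a gene.

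Genes of lipid handling and phagocytes led the Ccl3+Ccl4 class. The study has Ccl2, Ccl12 and Ccl3 together among the top genes of a microglial cluster. Another of its microglial clusters has Lpl, Fam20c, Cd9, Cd63, Ctsb, Apoe, Axl and Lyz2 beside Ccl3 and Ccl4, and also Gadd45b, Nceh1 and Cd83. That cluster came from these same cells, so the fixed list of such genes was not independent of the class. Of the 17 of 18 listed genes found in the matrix, 11 passed the floor. Of these 11, 9 were over 1.5-fold higher in the Ccl3+Ccl4 class and 0 lower. Among the 9, Lpl, Fam20c and Axl were under the floor in the Ccl2+Ccl7+Ccl12 class and could not be called lower. The median log2 ratio of the list was -0.81 (-0.68 unshared) against 0.03 for all genes tested. Lpl was 12.9 times as high (66.0 against 5.12 CPM), Fam20c 5.70 times (200.3 against 35.1 CPM), and the tetraspanin Cd9 2.12 times (2005 against 945.9 CPM), each in 6 of 6 suffixes. The fold of Lpl rests on few UMIs in the Ccl2+Ccl7+Ccl12 class and ran from 6.91 to 20.9 under the other settings tried. Spp1, the gene of osteopontin, was 2.76 times as high but in 4 of 6 suffixes. Apoe was 1.76 times as high (15365 against 8740 CPM); without the shared barcodes its log2 ratio went from -0.81 to -0.33, under the 1.5-fold limit. Outside the list the genes with the highest ratios were Gadd45b, a stress-response gene (3.29 times), the cholesterol ester hydrolase gene Nceh1 (2.98 times), the activation marker Cd83 (2.91 times), Uap1l1 (2.63 times), Mfsd12 (2.30 times) and Gm13889 (1.96 times). Of these genes outside the list only Cd83 was above the floor in the Ccl2+Ccl7+Ccl12 class. The others could not be called lower. Lysozyme Lyz2, on the list, was 1.89 times as high.

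On the side of Ccl2+Ccl7+Ccl12 the ratios were smaller and the genes less abundant. The guanylate-binding protein gene Gbp7, induced by interferon, was 2.68 times as high (51.9 against 19.4 CPM). Msh5 followed at 2.08 times, the proton pump subunit gene Atp6v0a2 at 1.74 times, Tardbp at 1.72 times and the transporter gene Slco4a1 at 1.69 times. The antiviral nucleotide hydrolase gene Samhd1 and Bnip2 were 1.61 times as high, the tetraspanin gene Cd151 1.59 times, the lipoxygenase gene Alox5 1.58 times and Stard9 1.57 times. All were higher in 6 of 6 suffixes by the rule that named them, and most lay close to the 50 CPM floor. Only Atp6v0a2 and Bnip2 were above the floor in the Ccl3+Ccl4 class (62.7 and 71.5 CPM). The others passed only through the class where they were high, and could not be called lower there. The fold of Gbp7 ran from 1.72 to 2.94 under the other settings tried.

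The other lists separated the classes less. Of 18 immediate early and heat shock genes above the floor, which mark activation during tissue handling, 0 were over 1.5-fold apart, and the median log2 ratio was 0.16; Fos was at 11786 and 10422 CPM and Hspa1a at 73.2 and 87.1 CPM. Of 14 NF-kB targets 1 was higher in the Ccl2+Ccl7+Ccl12 class (Il1b, 1.66 times, in 4 of 6 suffixes) and 2 in the other (Gadd45b and Cd83), with Tnf at 329.2 and 361.8 CPM. Of 4 interferon response genes 1 was higher in the Ccl3+Ccl4 class (the chemokine gene Cxcl10, 1.98 times, in 5 of 6 suffixes), while Ifitm3 had a log2 ratio of 0.52 toward the other. The 11 listed interferon genes under the floor lay mostly on the side of the Ccl2+Ccl7+Ccl12 class, with Ifit3 at 16.8 against 6.31 CPM, Usp18 at 32.9 against 13.5 CPM and Ifi44 at 41.7 against 24.8 CPM, the last pair in 6 of 6 suffixes. All 14 homeostatic microglial genes were within 1.5-fold, with P2ry12 at 3624 and 3397 CPM. Of 8 MHC genes 1 was higher in the Ccl2+Ccl7+Ccl12 class (H2-Aa, 1.60 times, but in 2 of 6 suffixes). Of 2 glucocorticoid response genes 1 was higher in the Ccl3+Ccl4 class (Sult1a1, 1.98 times, log2 ratio -0.22 without the shared barcodes). Gadd45b, Cxcl10, H2-Aa and Sult1a1 were under the floor in the class where they were lower. They passed only through the other class, so they could not be called the other way.

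Among CC receptors 4 passed the floor, and Ccr1 was 1.76 times as high in the Ccl2+Ccl7+Ccl12 class (62.2 against 35.3 CPM; 5 of 6 suffixes). Ccrl2 was 1.34 times as high in the Ccl3+Ccl4 class (591.1 against 439.6 CPM; 6 of 6), under the 1.5-fold limit. Ccr1 was under the floor in the Ccl3+Ccl4 class and could not be called lower in the other. None of the 12 other CC ligands passed the floor.

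**Figure D5:**
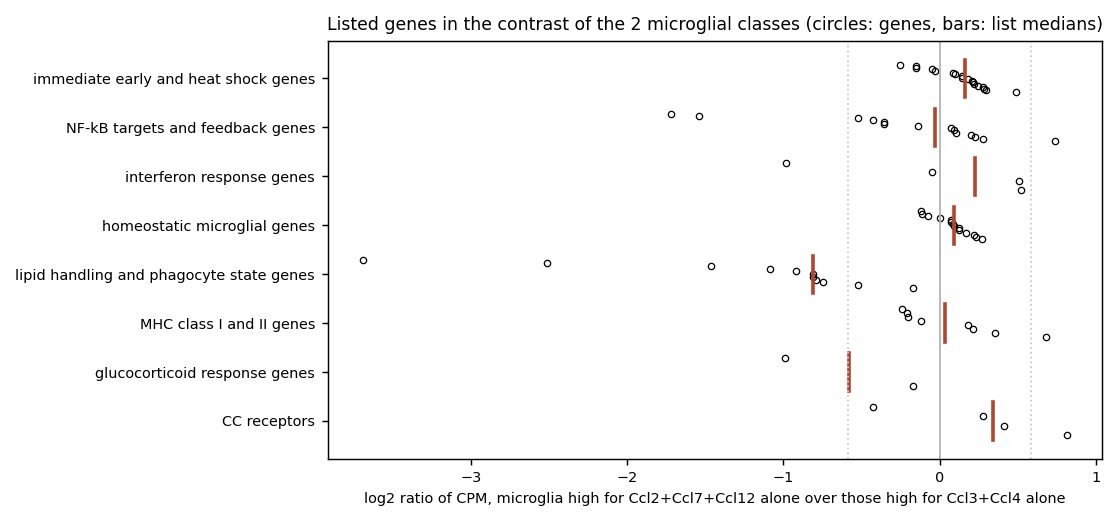
Log2 ratio of the Ccl2+Ccl7+Ccl12 class over the Ccl3+Ccl4 class, in draw 2, for the genes of each fixed list that passed 50 CPM; each point is a gene the bar of each list is its median, and the dotted lines mark 1.5-fold. The list of lipid handling and phagocyte genes lies to the side of the Ccl3+Ccl4 class (median -0.81), and the medians of the other lists with at least 4 genes lie between -0.03 and 0.34.

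The genes most like Ccl2 and Ccl3 were ranked by raw r over the same 21410 cells among 2691 genes. The closest to Ccl2 was Cd72, a C-type lectin-like receptor (r = 0.273; suffixes 0.0959 to 0.324), followed by Ccl12 in rank 2 (0.272), the mitochondrial translocator protein gene Tspo (0.225) and Ccl7 in rank 4 (0.214). Rpl32 (0.202), Ifitm3 (0.1999) and Ifi27l2a (0.198) came next, and the interferon-induced pair was as low as 0.0335 and 0.0408 in 1 suffix. The study has Cd72, Tspo, Rpl32, Ifitm3 and Ifi27l2a beside Ccl2 and Ccl12 among the top genes of a microglial cluster from these same cells. The closest to Ccl3 was Ccl4 (0.626), then the lysosomal genes Ctsb (0.275; suffixes 0.231 to 0.308) and Cd63 (0.253), Fam20c (0.228), Ctsz (0.208) and Apoe (0.208; suffixes 0.172 to 0.285). Ccl4 was in rank 19 and Ccl3 in rank 31 for Ccl2, and Ccl2 and Ccl12 were in ranks 16 and 17 for Ccl3. Ccl6 and Ccl9 were at ranks 2264 and 2034 for Ccl2 and at 357 and 210 for Ccl3.

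Ccl12 and Ccl8 are neighbours and similar in sequence (65.4% of coding bases), but stood at 3192 and 2.72 CPM in microglia, so the 250 bases before their starts are shown, from RefSeq on GRCm38.p6 and the + strand, at chr11:82101595-82101844 and chr11:82114935-82115184. RefSeq promoters were at hand for 5 of the 9 members (Ccl12, Ccl8, Ccl3, Ccl6 and Ccl9). The capitals mark the TATA box letters TATAAA.
Ccl12: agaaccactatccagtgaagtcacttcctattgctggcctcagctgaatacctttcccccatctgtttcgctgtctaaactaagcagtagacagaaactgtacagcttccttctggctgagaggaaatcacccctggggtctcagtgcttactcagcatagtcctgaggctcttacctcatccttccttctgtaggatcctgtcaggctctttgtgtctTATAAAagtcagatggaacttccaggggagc
Ccl8: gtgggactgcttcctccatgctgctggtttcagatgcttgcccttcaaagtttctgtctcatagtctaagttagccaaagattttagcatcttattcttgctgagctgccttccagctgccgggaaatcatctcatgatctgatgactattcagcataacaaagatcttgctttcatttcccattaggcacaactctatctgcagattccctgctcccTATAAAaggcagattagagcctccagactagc
TATAAA lay 31 to 26 bases before the start of Ccl12 and 32 to 27 bases before that of Ccl8, and it was found on either strand in 3 of the 5 members against 12.4% of 32851 promoters of the same length. The AP-1 letters TGANTCA (6.75% of promoters) and the NF-kB consensus (7.25%) were found only in Ccl9, and the C/EBP letters TTGCNNAA (9.56%) and the interferon response element core (2.98%) in none of the 5. Both strands were searched. A match, or none, describes these letters in this window and nothing about a factor.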

How the data were processed

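Per the labels and the study's methods, CD45+ cells of 6 mice were sequenced with the 10x Chromium 3′ v2 kit in 3 batches, which the barcodes do not name. The authors aligned reads to mm10 and combined the libraries with Cell Ranger 3.1, and listed Seurat 3.1.5. The deposited values are raw UMI counts per gene and barcode. The members and lists were chosen with earlier results of these data known.

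The study's limits on genes (more than 200, no more than 2500) and mitochondrial UMIs (less than 5%) were applied to the barcodes. A lineage gate needed UMIs of at least 3 marker genes, and a state at least 2 marker genes (Apoe high: 15 Apoe UMIs) after thinning to 1000 UMIs. No doublet caller was run; 160 barcodes that passed several gates, and those of another type with microglial RNA, were kept apart. UMIs were summed per group as CPM with exact Poisson 95% intervals, and shares have Clopper-Pearson intervals. Genes were called apart at over 1.5-fold with at least 50 CPM in either group. Named in the class contrast were the 10 genes with the highest ratio each way, in the same direction in every suffix, and up to 4 genes of each list with the largest ratio; for likeness, the 5 genes with the highest r with Ccl2 and Ccl3; Fos, Tnf, P2ry12 and Apoe were chosen after their values were seen. One gene of the receptor list is not reported here. With all cells as 1 pooled sample no test between groups was run. Alternatives were other gates, depths, limits on high and low, a log scale and leaving out each suffix; leaving out shared barcodes was added after seeing the data. The scripts were tested on simulated data (Python 3.11.15, numpy 2.4.6, scipy 1.17.1, pandas 2.3.3, matplotlib 3.10.9).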

Additional observations from a re-analysis of the deposited data

Results flagged for a closer look

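Over the suffixes, which share cells, hold both groups and were not assigned to mice here, 79 sets of values in microglia, their states and choroid plexus were examined, and in 10 of them 1 suffix lay far from the others by Dixon's criterion. For independent values of a single population chance gives about 1 in 20; these values are not independent, so that rate is no yardstick here. In choroid plexus this was Ccl6, at 9.62 CPM in 1 suffix from its only UMI. Among cycling microglia the outlying suffix had Ccl8 at 6.71 CPM, Ccl3 at 3249 CPM and Ccl5 at 330.6 CPM. It had Ccl3 at 2186 CPM in MHC class II cells and at 2332 CPM in Il1b and Tnf cells. In Lpl and Fam20c cells it had Ccl7 at 173.1 CPM and Ccl9 at 205.6 CPM, and in Apoe high cells Ccl8 at 23.8 CPM and Ccl9 at 33.4 CPM. Each value is that of the outlying suffix of its own set of 4 to 6 suffixes, and the cause was not tested.

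Ligands were also counted in barcodes that the limits left out. The 891 barcodes with over 2500 genes held Ccl2 at 1447 CPM, Ccl7 at 147.9 CPM, Ccl12 at 4361 CPM, Ccl8 at 4.38 CPM, Ccl3 at 2325 CPM, Ccl4 at 4239 CPM, Ccl5 at 445.7 CPM, Ccl6 at 88.2 CPM and Ccl9 at 86.8 CPM. The 762 barcodes with 5% or more mitochondrial UMIs held Ccl2 at 1001 CPM, Ccl7 at 85.0 CPM, Ccl12 at 3267 CPM, Ccl3 at 1447 CPM, Ccl4 at 2525 CPM, Ccl5 at 259.4 CPM, Ccl6 at 124.8 CPM and Ccl9 at 68.2 CPM. Each of these rested on more than 3 UMIs, the number that a count of 0 allows.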

How the results depend on the processing

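No paired analysis was possible because the barcode suffixes carry no replicate numbers of the mice, and no result came from a test between groups. Of 344 values over 30 results, 317 moved by less than the spread over suffixes or, for a count, by less than 1.5 times, and 27 moved further. Many of these values left out 1 suffix at a time, which can shift a pooled value only little against that spread. The spread also holds any difference between the groups. The count of 317 is thus no measure of robustness. Only the correlations could change sign, which 0 of them did. Levels, shares, ratios and counts cannot change sign, so this says nothing about them. With gates set on barcodes thinned to 500 UMIs, Ccl5 in NK cells was at 16568 CPM, and without shared barcodes Ccl12 in microglia was at 3670 CPM. The corrected r of Ccl3 and Ccl4 was 0.649 in cells of at least 1000 UMIs with draws of 500, and on log2 of UMIs plus 1 the raw r was 0.537 for that pair and 0.32 for Ccl2 and Ccl12. Limits of 4 and 1 UMIs for high and low gave a co-occurrence of 1.23 times the product, shares of 11.5% and 16.4% for the Ccl2+Ccl7+Ccl12 and Ccl3+Ccl4 classes, and 13 and 32 genes apart; limits of 12 and 3 gave 1.85 times, 3.802%, 7.84%, and 113 and 86 genes. Choice and values from the same 2000 UMIs gave shares of 5.39% and 9.81%. With 1 suffix left out at a time there were 46 to 63 genes higher in the Ccl2+Ccl7+Ccl12 class (63 without suffix 2) and 51 to 72 in the other, against 38 and 53 with all cells. Without shared barcodes the counts were 43 and 36. The counts of genes apart thus depend on the limits. Lpl was 6.91 times as high in the Ccl3+Ccl4 class with limits of 12 and 3, 8.28 times with no upper limit on genes, 9.12 times with another random seed and 20.9 times with gates of 4 markers. The cause of these changes was not tested. Depth limits Ccl8 and Ccl5 in microglia and the 25 granulocytes and 5 border macrophages.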
